A study of Homo sapiens with 8 samples.

Results

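The arms of miR-101, miR-26a and miR-26b, microRNAs (miRNAs) known as repressors of EZH2, were followed in CD44v6-positive and CD44v6-negative HCT116 cells. The 6 members were chosen by name, and all 6 were present among the 2026 entries of the miRNA count table. They are the guide arms hsa-miR-101-3p, hsa-miR-26a-5p and hsa-miR-26b-5p and the passenger arms hsa-miR-101-5p, hsa-miR-26a-2-3p and hsa-miR-26b-3p, written below without the species prefix. HCT116 is a human colorectal cancer cell line. Both groups came from spheroids that were grown in serum-free medium with growth factors in low-attachment flasks, stained for CD44v6 (CD44, a receptor for hyaluronan, with variant exon 6), and sorted live by flow cytometry. The 8 sequencing entries of the labels are combined in pairs, so each group held 2 samples, 2 CD44v6-positive and 2 CD44v6-negative. Whether a group's samples are separate cultures is not in the labels. The p-values therefore weigh a group difference only against the spread between these samples, estimated with the help of all tested miRNAs. That spread could be technical. All cells are of 1 cell line.

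A miRNA is cut from a hairpin precursor as a pair of arms. The guide arm is loaded into an Argonaute protein and pairs, mainly through its seed (bases 2 to 8), with sites in messenger RNAs, which are then repressed, while the passenger arm is mostly degraded. EZH2 is the histone methyltransferase of the Polycomb repressive complex 2, which marks histone H3 to silence genes, and it is often abundant in tumours. Loss of miR-101 is known to raise EZH2 in prostate cancer, and miR-26a is known to repress EZH2 in muscle precursors and in MYC-driven lymphoma. EZH2 RNA and protein were not measured here.

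The mature sequences of the 3 guide arms are shown because shared seeds define which target sites they can pair with, with the seed in capitals (5′ to 3′, RefSeq, GRCh38.p14).
miR-101-3p: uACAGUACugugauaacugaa
miR-26a-5p: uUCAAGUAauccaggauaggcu
miR-26b-5p: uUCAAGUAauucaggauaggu
miR-26a-5p and miR-26b-5p share the seed and match at 19 of 21 compared positions. Counted from 1 at the 5′ end, the substitutions from miR-26a-5p to miR-26b-5p are C11U and C21U, and miR-26a-5p is 22 bases long against 21. With sequences this close, and with the mismatch setting of the counting not given in the sources used here, some reads of one could be counted as the other. miR-1297 was the 1 other entry with the miR-26 seed, with 0 reads in either CD44v6-positive sample, against 5 and 2 reads in CD44v6-negative samples 1 and 2. No other entry with a RefSeq sequence had the miR-101-3p seed.

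The passenger arms are shown next to them, since their seeds differ from those of the guides.
miR-101-5p: cAGUUAUCacagugcugaugcu
miR-26a-2-3p: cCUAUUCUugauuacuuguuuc
miR-26b-3p: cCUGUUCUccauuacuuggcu

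The complement of each guide seed was searched on the sense strand of the annotated 3′ untranslated region of EZH2 (chromosome 7, minus strand, GENCODE 29, GRCh38). The matches are printed because they are the sequences through which these miRNAs could pair with EZH2, with the match in capitals.
miR-101 match, chr7:148807581-148807587: aacctcgaGTACTGTgggca
miR-101 match, chr7:148807526-148807532: tttgcaaaGTACTGTaagaa
miR-26 match, chr7:148807390-148807396: ataaagaaTACTTGAacttg
The miR-101 motif GTACTGT occurred at 59 and at 114 bases from the start of a region of 262 bases, in all 6 coding transcripts with an annotated region. The miR-26 motif TACTTGA occurred at base 250, in 4 of the 6 transcripts. Among 4447 genes whose longest region was within 0.5 to 2 times this length, 1.64% held GTACTGT, 2.16% held TACTTGA and 0.0675% held both. A match of letters is a description and does not show binding in these cells.

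The hairpins lie on 5 chromosomes of GRCh38. miR-101-3p is encoded in MIR101-1 (chromosome 1, 65058434 to 65058508, minus strand), outside any other annotated gene, and in MIR101-2 (chromosome 9, 4850297 to 4850375, plus strand), within an RCL1 intron and opposite an exon of the antisense gene AL158147.1. miR-101-5p comes from MIR101-1 alone, and the passenger arm of MIR101-2 was not analysed here. miR-26a-5p is encoded in MIR26A1 (chromosome 3, 37969404 to 37969480, plus strand), within a CTDSPL intron, and in MIR26A2 (chromosome 12, 57824609 to 57824692, minus strand), within a CTDSP2 intron. MIR26B (chromosome 2, 218402646 to 218402722, plus strand) lies within a CTDSP1 intron. The host genes of the 3 miR-26 hairpins are related and encode small phosphatases of the RNA polymerase II tail. Reads of miR-101-3p and of miR-26a-5p could not be assigned to a locus.

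The libraries differed in depth, with totals of 919802 and 154481 for CD44v6-positive samples 1 and 2, against totals of 7880631 and 4592278 for CD44v6-negative samples 1 and 2. Levels are given as CPM, reads per 1000000 after TMM scaling of library sizes. A count of 0 allows up to 3 reads, which was 3.24 and 15.6 CPM in the CD44v6-positive and 0.574 and 0.544 CPM in the CD44v6-negative samples, a limit for counting error only, since amplified reads are not independent molecules. The 6 markers chosen for colorectal epithelium were all read in every sample, 3 with a log2 fold change below 0 and 3 above. Of these, DESeq2 called miR-141-3p lower (log2 fold change -2.41 with edgeR, DESeq2 adjusted p = 0.0146), while miR-215-5p (1.73) and miR-192-5p (0.80) lay the other way and overlapped between the groups. Over all tested miRNAs, DESeq2 called 8.77% in either direction. The 17 markers chosen for blood, endothelium, stroma, muscle, liver and neural cells summed to 6917 and 10913 CPM in CD44v6-positive and to 10567 and 5925 CPM in CD44v6-negative samples 1 and 2. Of these 17, 16 had a read and the muscle miRNA miR-206 had 0 throughout. The 11 that were tested split into 5 below and 6 above 0, with 4 lower and 3 higher without overlap. Of all 570 tested miRNAs, 34.6% were lower, 24.9% higher and 59.5% either way without overlap. The 4 lower were miR-126-5p (-1.52), miR-145-5p (-1.22), miR-9-5p (-1.19) and miR-126-3p (-0.94), and the 3 higher were miR-122-5p (6.22), miR-486-5p (0.67) and miR-150-5p (0.58). The other tested markers, miR-451a (3.12), miR-143-3p (1.71), miR-142-5p (0.68) and miR-142-3p (-0.37), overlapped. miR-451a stood at 15.1 and 281 CPM in CD44v6-positive samples 1 and 2, against 24.9 and 7.62 CPM in CD44v6-negative samples. For miR-143-3p these were 746 and 4972 CPM against 1084 and 665 CPM. miR-150-5p had only 5 and 1 reads in CD44v6-positive samples 1 and 2, against 24 and 14 reads in CD44v6-negative samples, so its separation rests on few reads. The widest gap was that of the liver miRNA miR-122-5p, which stood at 48.6 and 609.7 CPM in CD44v6-positive against 4.59 and 3.99 CPM in CD44v6-negative samples. DESeq2 called miR-122-5p higher (adjusted p = 2.6e-07). The part of these marker differences in the results below was not tested.

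miR-101-3p, the guide arm with a pair of matches in EZH2, lay lowest relative to CD44v6-negative cells among the guides. It was at 628 and 573 CPM in CD44v6-positive samples 1 and 2 (582 and 110 reads), against 4774 and 2626 CPM in CD44v6-negative samples 1 and 2 (24951 and 14485 reads). Both CD44v6-positive samples were below both CD44v6-negative samples. With TMM the CD44v6-positive samples were closer to each other than the CD44v6-negative ones. With total count scaling the CD44v6-negative samples were the closer ones, at 3167 and 3157 CPM against 633 and 713 CPM in CD44v6-positive samples. The log2 fold change, CD44v6-positive minus CD44v6-negative, was -2.62 ± 0.51 (SE, n = 2 each), a fitted level of 16.2% of that in CD44v6-negative cells. With edgeR's quasi-likelihood test this missed the threshold of 0.05 (adjusted p = 0.0787, rank 12 by p of 570 tested miRNAs), while DESeq2 called it lower (log2 fold change -2.82, adjusted p = 0.00246). With edgeR it passed without CD44v6-positive sample 1 (adjusted p = 0.0423) and without CD44v6-negative sample 2 (adjusted p = 0.0030), but not without CD44v6-positive sample 2 (adjusted p = 0.175) or CD44v6-negative sample 1 (adjusted p = 0.0799). Over the alternatives with all samples, its adjusted p ran from 2.79e-12 to 0.0926, the latter in edgeR with upper-quartile scaling. The 2.79e-12 is from the edgeR fit with the replicate number as a block, which leaves 1 residual degree of freedom. The labels do not give the pairing that this block assumes. The next smallest was the 0.00246 of DESeq2. In sorted populations a smaller share of cells with a miRNA and less of it per cell cannot be told apart.

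miR-26b-5p, the less abundant miR-26 guide, was also lower in both CD44v6-positive samples. It was at 2400 and 1574 CPM in CD44v6-positive samples 1 and 2, against 9347 and 4790 CPM in CD44v6-negative samples 1 and 2. The groups did not overlap, although with TMM CD44v6-negative sample 2 lay closer in CPM to CD44v6-positive sample 1 than to CD44v6-negative sample 1. This was not so with total count scaling, at 2419 and 1957 CPM in CD44v6-positive against 6202 and 5758 CPM in CD44v6-negative samples 1 and 2. The log2 fold change was -1.83 ± 0.53 (SE), a fitted level of 28.1% of that in CD44v6-negative cells, and did not pass in edgeR (adjusted p = 0.117) or in DESeq2 (adjusted p = 0.0597). It passed in edgeR without CD44v6-negative sample 2 (log2 fold change -2.07, adjusted p = 0.0263). Without CD44v6-negative sample 1 the log2 fold change was -1.20.

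miR-26a-5p, the most abundant of the 6 arms, was closer between the groups. It was at 11101 and 8786 CPM in CD44v6-positive samples 1 and 2, against 16529 and 11460 CPM in CD44v6-negative samples 1 and 2. CD44v6-positive sample 1 and CD44v6-negative sample 2 were nearly level. The groups were just apart with TMM scaling and overlapped with upper-quartile, total count and DESeq2 scaling. The log2 fold change was -0.49 ± 0.43 (SE), near the median of -0.31 over all 570 tested miRNAs, and did not pass (edgeR adjusted p = 0.489, DESeq2 adjusted p = 0.56). Without CD44v6-positive sample 1 it was -0.79, without CD44v6-positive sample 2 -0.12 and without CD44v6-negative sample 1 -0.13.

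**Figure D1:**
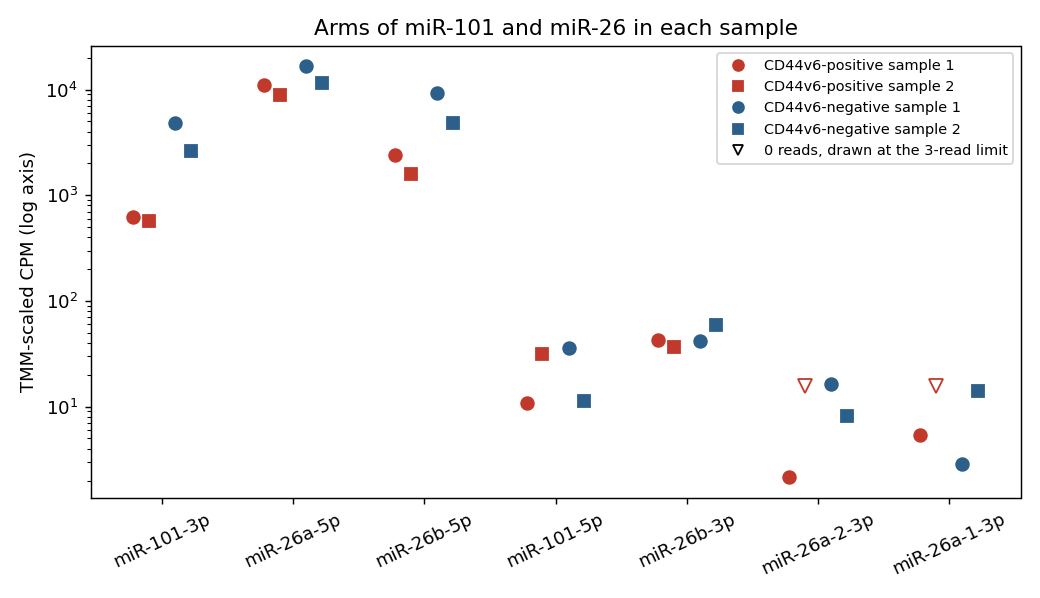
Level of each arm in every sample, as TMM-scaled CPM on a log axis, with CD44v6-positive samples in red left of CD44v6-negative samples in blue and guide arms on the left. The 3 guides stand at 573 CPM or more in every sample and the passenger arms at 59.1 CPM or less, and miR-101-3p shows the widest gap between the groups among the guides.

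The passenger arms were rare. miR-101-5p was at 10.8 and 31.3 CPM in CD44v6-positive samples 1 and 2 (10 and 6 reads), against 36.0 and 11.4 CPM in CD44v6-negative samples 1 and 2 (188 and 63 reads). The samples of both groups interleaved. The log2 fold change was -0.35 ± 0.91 (SE) with TMM and 0.24 with total count scaling (edgeR adjusted p = 0.814 with TMM). miR-26b-3p was at 43.2 and 36.5 CPM in CD44v6-positive samples 1 and 2, against 41.5 and 59.1 CPM in CD44v6-negative samples 1 and 2. These overlapped too, with a log2 fold change of -0.32 ± 0.59 (SE) with TMM and 0.01 with upper-quartile scaling (edgeR adjusted p = 0.731 with TMM). With DESeq2 scaling the groups of miR-26b-3p were just apart, at 46.1 and 29.7 CPM in CD44v6-positive against 46.7 and 60.4 CPM in CD44v6-negative samples.

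miR-26a-2-3p had 2 and 0 reads in CD44v6-positive samples 1 and 2, against 86 and 45 reads in CD44v6-negative samples 1 and 2. In CPM this was 2.16 and 0 in CD44v6-positive against 16.5 and 8.16 in CD44v6-negative samples, but the 0 of the shallow CD44v6-positive sample 2 allows up to 15.6 CPM, which is above CD44v6-negative sample 2. The pooled CPM ratio of CD44v6-positive over CD44v6-negative samples was 0.147, with an exact 95% counting interval of 0.0176 to 0.54. The fitted log2 fold change was -2.84 ± 1.09 (SE, edgeR adjusted p = 0.144) and depended on single samples, from -8.48 without CD44v6-positive sample 1, where the sample kept has 0 reads, to -2.30 without CD44v6-positive sample 2. This arm entered the test through its CD44v6-negative reads, so a low CD44v6-positive level was built into its inclusion. The 3p arm of the other miR-26a hairpin, miR-26a-1-3p, was read 5 and 0 times in CD44v6-positive samples, against 15 and 78 times in CD44v6-negative samples, with a log2 fold change of -1.10 ± 1.23 (SE), and the groups overlapped.

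All 6 members were tested, but miR-26a-2-3p entered through its CD44v6-negative reads alone, so it is left out of the counts that follow. For the other 5 the log2 fold change was below 0 in 5 with TMM scaling (miR-101-5p was above 0 with total count and miR-26b-3p with upper-quartile scaling), against 55.4% of all 570 tested miRNAs. Their median was -0.49, near the median of -0.31 over all tested. With edgeR 0 of the 5 passed an adjusted p under 0.05, as did 0% of all tested. At an adjusted p under 0.1 it was 1 of the 5, miR-101-3p, against 4.74% of all tested in either direction and 2.81% lower. At an unadjusted p under 0.05, 2 of the 5 were lower (miR-101-3p and miR-26b-5p), against 17.5% of all tested lower, 13% higher and 30.5% in either direction. DESeq2 called 1 of the 5, miR-101-3p, as lower, against 5.44% of all called lower and 8.77% called in either direction. The groups did not overlap, on the lower side, in 3 of the 5 with TMM and with DESeq2 scaling and in 2 of the 5 with upper-quartile and total count scaling. Besides miR-101-3p and miR-26b-5p, the arm was miR-26a-5p with TMM and miR-26b-3p with DESeq2 scaling. With TMM the groups did not overlap in 34.6% of all tested on the lower side, 24.9% on the higher side and 59.5% on either. The shares of all tested under the other scalings are not given here. miR-101-3p and miR-26b-5p were the 2 arms among these 5 without overlap under all 4 scalings. The arms of a hairpin share a precursor, so the members are not independent of each other.

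**Figure D2:**
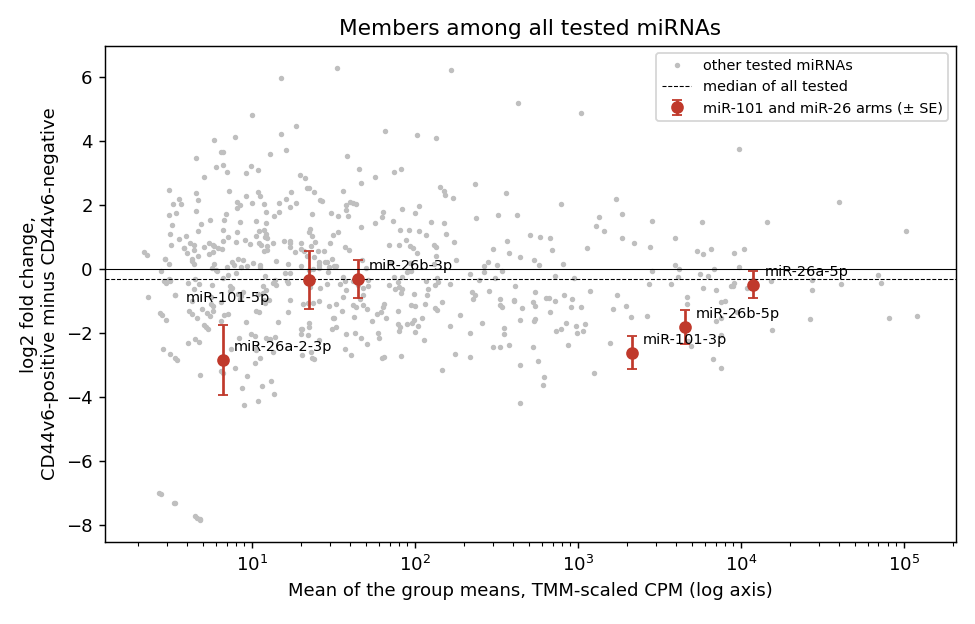
Log2 fold change, CD44v6-positive minus CD44v6-negative, against mean TMM-scaled CPM (log axis) for the 570 tested miRNAs, with the 6 arms in red with their SE and the median of all tested dashed. miR-101-3p at -2.62 and miR-26b-5p at -1.83 lie below the dashed line, and miR-26a-5p at -0.49 lies near the dashed line.

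Ratios of guides within a sample do not depend on the scaling between samples. The ratio of miR-26a-5p to miR-26b-5p reads was 4.63 and 5.58 in CD44v6-positive samples 1 and 2, against 1.77 and 2.39 in CD44v6-negative samples 1 and 2. The log2 ratio was higher by 1.30 in CD44v6-positive cells, with means of 2.35 ± 0.19 in CD44v6-positive and 1.04 ± 0.31 in CD44v6-negative samples (SD, n = 2 each), and with 1 sample left out the difference ran from 1.09 to 1.52. For this pair of guides with the same seed, every CD44v6-positive ratio lay above every CD44v6-negative ratio. The ratio of miR-101-3p to miR-26a-5p reads was 0.0566 and 0.0652 in CD44v6-positive samples, against 0.289 and 0.229 in CD44v6-negative samples. On the log2 scale that is a difference of -2.08, the largest of the 3 guide pairs. The ratio of miR-101-3p to miR-26b-5p reads was 0.262 and 0.364 in CD44v6-positive samples, against 0.511 and 0.548 in CD44v6-negative samples, a log2 difference of -0.78. The exact two-sided permutation p of each of these 3 differences was 0.333, the smallest that 2 against 2 samples allow. Such separation is common here: among 17766 pairs of the 189 tested miRNAs with a mean of 100 CPM or more and reads in every sample, 64.8% had ratios that did not overlap between the groups, and the median absolute log2 difference was 1.44. A ratio of reads between miRNAs is not a ratio of molecules, since ligation favours some sequences.

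The 3 guides together made up 14129 and 10934 CPM in CD44v6-positive samples 1 and 2, against 30650 and 18876 CPM in CD44v6-negative samples 1 and 2. The miR-26 seed accounted for most of this in every sample, and miR-26a-5p for most of the miR-26 reads.

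The arms of each miRNA were compared as the passenger share of the reads of both arms, with exact Clopper-Pearson 95% intervals that cover counting error only. The guides miR-101-3p and miR-26a-5p come from 2 hairpins each, while miR-101-5p and miR-26a-2-3p come from 1. The miR-101 and miR-26a shares are therefore not those of a single hairpin. miR-101-5p took 1.69% (0.813 to 3.08) and 5.17% (1.92 to 10.9) in CD44v6-positive samples 1 and 2, against 0.748% (0.645 to 0.862) and 0.433% (0.333 to 0.554) in CD44v6-negative samples 1 and 2. miR-26b-3p took 1.77% (1.27 to 2.40) and 2.27% (0.916 to 4.61) in CD44v6-positive samples, against 0.442% (0.385 to 0.505) and 1.22% (1.09 to 1.36) in CD44v6-negative samples. For miR-101 and miR-26b the CD44v6-positive shares lay above the CD44v6-negative ones, by 2.84 and 1.19 percentage points on average. However, the intervals of miR-101 in both samples numbered 1 overlap, as do those of miR-26b in CD44v6-positive samples 1 and 2 and CD44v6-negative sample 2. miR-26a-2-3p went the other way, with 0.0194% (0.00235 to 0.0702) and 0% (0 to 0.219) in CD44v6-positive against 0.0994% (0.0796 to 0.123) and 0.0711% (0.0519 to 0.0952) in CD44v6-negative samples. The difference was -0.0756 percentage points, and the interval of CD44v6-positive sample 1 overlaps that of CD44v6-negative sample 2, and that of CD44v6-positive sample 2 overlaps both CD44v6-negative ones. Since miR-26a-2-3p entered through its CD44v6-negative reads alone, a low CD44v6-positive share was built into its inclusion, and its direction is not a result. Each exact two-sided permutation p was again 0.333. Without CD44v6-positive sample 2, whose miR-101 arms held 116 reads, the miR-101 difference was 1.1 percentage points, and without CD44v6-positive sample 1 it was 4.58. Among 134 hairpins with both arms tested, the share of the rarer arm was higher without overlap in 29.9% and lower without overlap in 35.1%. Arms were paired by name for this, which leaves out the miR-26a arms.

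**Figure D3:**
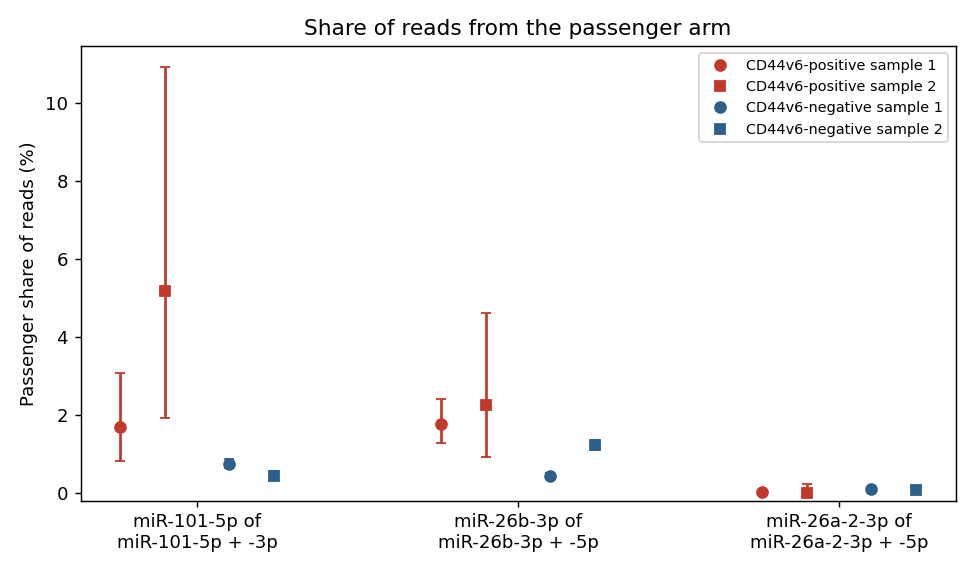
Passenger arm share of the reads of both arms (%), for miR-101, miR-26b and miR-26a in each sample, CD44v6-positive in red left of CD44v6-negative in blue, with exact 95% counting intervals. The red points of miR-101 (1.69% and 5.17%) and miR-26b (1.77% and 2.27%) lie above the blue ones, and those of miR-26a lie near 0.

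The members also differed in base composition, which moved with the fold change across the table. GC content was 33.3% in miR-101-3p and in miR-26b-5p, 40.9% in miR-26a-5p, 31.8% in miR-26a-2-3p, 45.5% in miR-101-5p and 47.6% in miR-26b-3p. miR-26a-2-3p entered the test through its CD44v6-negative reads alone. Among the other arms, miR-101-3p and miR-26b-5p had both the lowest GC content and the lowest log2 fold changes. Over the 497 tested miRNAs with a RefSeq sequence (87.2%), which share the same 4 libraries, the Pearson r of GC content and log2 fold change was 0.457. The median log2 fold change was -1.52 in the 155 miRNAs of 45% GC or less and 0.23 in the other 342. With a smooth trend on GC content subtracted, miR-101-3p was at -0.996, miR-26b-5p at -0.20 and miR-26a-5p at 0.54. The order of the 3 guides was the same as before, while miR-26b-5p stood close to 0 and miR-26a-5p had the opposite sign.

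**Figure D4:**
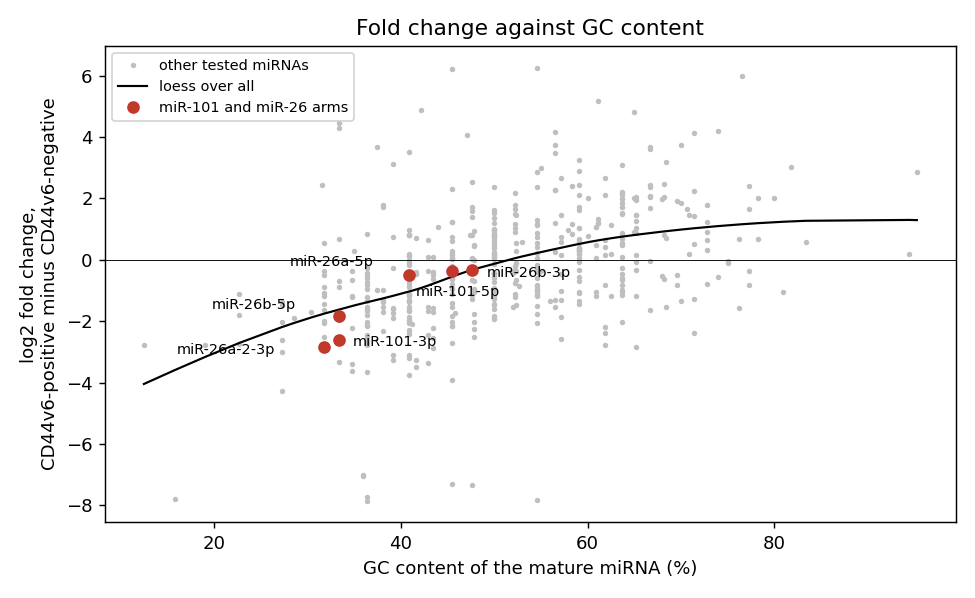
Log2 fold change, CD44v6-positive minus CD44v6-negative, against the GC content of the mature miRNA (%) for 497 tested miRNAs, with the 6 arms in red and a loess curve in black. miR-101-3p and miR-26a-2-3p lie below the curve, miR-26b-5p just below it and miR-26a-5p above it.

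**Figure D5:**
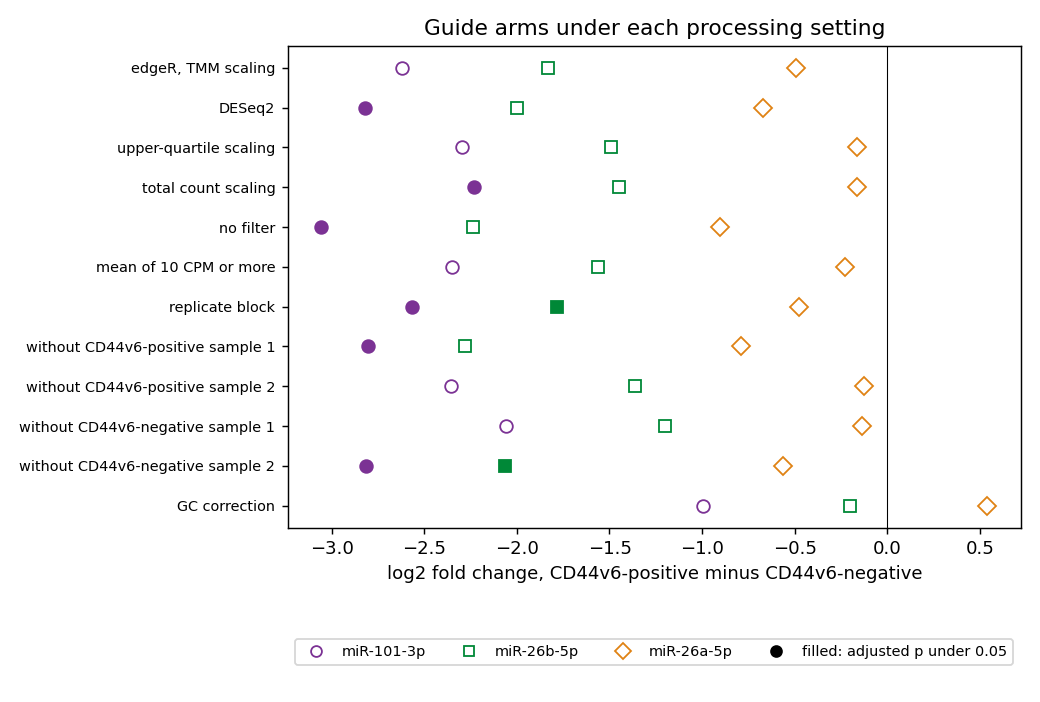
Log2 fold change of the 3 guides, CD44v6-positive minus CD44v6-negative, under each processing setting, with filled symbols for an adjusted p under 0.05 (the GC-corrected values have no test). miR-101-3p is the leftmost and miR-26a-5p the rightmost guide in every setting, and miR-101-3p is filled in 6 of the 10 alternatives with a test.

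By Euclidean distance between centred log2 CPM profiles over the 4 samples, the miRNAs nearest to miR-101-3p among 188 candidates were miR-30b-5p (distance 0.47), miR-141-3p of the miR-200 family (0.488) and miR-21-3p (0.588). Their log2 fold changes were -2.33 ± 0.59, -2.41 ± 0.57 and -2.82 ± 0.43 (SE). Nearest to miR-26b-5p were miR-190a-5p (0.252), miR-96-5p (0.295) and miR-200a-3p (0.319), with log2 fold changes of -1.80, -1.62 and -1.96. Nearest to miR-26a-5p were miR-151b (0.164), miR-151a-5p (0.166) and miR-30d-5p (0.17), with log2 fold changes of -0.35, -0.35 and -0.44. Because the distance uses the same 4 samples, fold changes close to those of each guide follow from the choice. The miR-151 entries are near-identical in sequence, so their reads may be shared.

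Of 10 other miRNAs reported to repress EZH2, 5 were tested, and with edgeR 0 passed, as did 0% of all tested. Their median log2 fold change was -0.10, with 3 below and 2 above 0, against a median of -0.31 and 55.4% below 0 over all tested. miR-98-5p, a relative of let-7, was at 3163 and 3382 CPM in CD44v6-positive against 6737 and 5303 CPM in CD44v6-negative samples 1 and 2, without overlap (log2 fold change -0.88 ± 0.42, edgeR adjusted p = 0.215). let-7a-5p (-0.45 ± 0.59), let-7b-5p (0.61 ± 0.58), let-7c-5p (-0.10 ± 0.76) and miR-138-5p (0.24 ± 0.74) overlapped between the groups. The other 5, miR-124-3p, miR-144-3p, miR-214-3p, miR-217 and miR-506-3p, had at most 15 reads in any sample and were not tested.

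Of 9 miRNAs reported to repress BMI1 or RING1B, proteins of the Polycomb repressive complex 1, 9 were tested and 0 passed with edgeR or DESeq2, against 0% and 8.77% of all tested. Their median log2 fold change was -0.54, with 7 below and 2 above 0, against a median of -0.31 and 55.4% below 0 over all tested. At an unadjusted p under 0.05 it was 1 of the 9, lower, against 17.5% of all tested lower. That was miR-203a-3p, given with its levels after its values were seen, at 391.7 and 359.6 CPM in CD44v6-positive against 1138 and 795 CPM in CD44v6-negative samples 1 and 2 (-1.36 ± 0.49, edgeR adjusted p = 0.132). The abundant miR-16-5p (-0.54 ± 0.42), miR-200b-3p (-0.23 ± 0.42), miR-200c-3p (-0.61 ± 0.69) and miR-181a-5p (0.46 ± 0.55) had log2 fold changes of less than 1 in either direction. miR-15a-5p (-0.82 ± 0.52), miR-218-5p (-1.71 ± 0.78), miR-128-3p (-0.24 ± 0.58) and miR-181b-5p (0.95 ± 0.51) made up the rest.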

How the data were processed

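Small RNA reads of 2 CD44v6-positive and 2 CD44v6-negative HCT116 samples were analysed. The authors deposited raw counts per mature miRNA, and per the file headers each column combines the sequencing entries of 1 identity. The submitters' processing notes name CASAVA (1.8.2), cutadapt (1.10), Bowtie (0.12.9), DESeq2 and the build GRCh38. How each tool was used, which mismatches were allowed and how reads with several matches were counted is not given in the sources used here. A normalized copy of the counts was not used.

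Of 2026 entries, 1510 had a read and 570 were tested with edgeR 4.0.16 in R 4.3.3 (quasi-likelihood fit, TMM scaling, filterByExpr with a minimum count of 10 and 15 in total), with Benjamini-Hochberg adjustment over all 570. The minimum count acts as a CPM cutoff set at the median library size, to be reached in as many samples as a group holds. Tested miRNAs can therefore have fewer reads than this in a shallow sample. Each SE was obtained as the absolute log2 fold change over the square root of the F statistic. The code of the fit was run on simulated counts with known changes and the same variability for every miRNA. That run does not show how the fit performs on these data. DESeq2 1.42.0, with size factors from all entries, was run on the same 570. Sequences and hairpin positions came from RefSeq, which matched 88.8% of entries, and gene annotation from GENCODE 29.

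The members and lists were chosen with earlier results of these data known. Named miRNAs were the members, miR-26a-1-3p, entries sharing a guide seed, list members, and the 3 nearest profiles to each guide among tested miRNAs of 100 CPM or more (log2 CPM with a prior count of 2).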

Additional observations from a re-analysis of the deposited data

How the results depend on the processing

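The number of miRNAs past an adjusted p under 0.05 was 0 with edgeR and TMM, with upper-quartile scaling and with the 10 CPM filter, while 30.5% had an unadjusted p under 0.05. It was 50 with DESeq2, 48 with total count scaling, 77 with no filter and 26 to 55 with 1 sample left out. With 1 sample left out, the lone sample of a group is assumed to vary like the other group. The median log2 fold change of all miRNAs moved by 0.34 with upper-quartile scaling, 0.31 with total count scaling and -0.14 with DESeq2. With no filter, where 1510 miRNAs were tested in place of 570, the median moved by -1.25, to -1.55. miR-101-3p was called with DESeq2 (-2.82), total count scaling (-2.23) and no filter (-3.06), and ran from -2.82 to -2.06 with 1 sample left out. Likewise miR-26b-5p ran from -2.28 to -1.20, miR-26a-5p from -0.79 to -0.12, miR-101-5p from -0.95 to 0.78 and miR-26b-3p from -0.59 to 0.12. Sign also changed for miR-101-5p with total count scaling (0.24) and for miR-26b-3p with upper-quartile scaling (0.014). After the GC correction the values were -0.996 for miR-101-3p, -0.20 for miR-26b-5p, 0.54 for miR-26a-5p, -1.09 for miR-26a-2-3p, 0.20 for miR-101-5p and 0.0072 for miR-26b-3p. With both miR-26a 3p arms as passenger, the miR-26a share difference was -0.122 percentage points. The cause of these shifts was not tested. Leaving out samples for the miR-101 ratios was added after seeing the data, and gave -2.25 to -1.92 against miR-26a-5p and -1.02 to -0.54 against miR-26b-5p. miR-26a-2-3p was not tested under the 10 CPM filter or without CD44v6-negative sample 1.

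With the replicate number as a block, 228 of all 570 tested miRNAs passed, among them miR-101-3p (-2.57) and miR-26b-5p (-1.79). miR-26a-2-3p (-3.09), which entered through its CD44v6-negative reads alone, also passed in that fit. That fit leaves 1 residual degree of freedom. The labels do not say that equal numbers mark paired samples, and deviations of same-numbered samples from their group means correlated at 0.375 over 570 miRNAs.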
